A study of Mus musculus with 4 samples.

Results

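Solute carriers are membrane proteins that move nutrients, metabolites, metals and ions across cell and organelle membranes, and the genes described here are those whose probe sets were bright in activated mouse macrophages. Of 362 genes on the array with a symbol starting Slc, 232 were dimmer than a mean of 300 over the 4 arrays, judged by the brightest probe set. Leaving out Slc2a1, Slc16a3, Slc7a2 and Slc7a11 by name, 126 remained, of 18193 named genes in all. All 126 passed the filter on dim probe sets. Membership rested on the mean over both stimulations, so a gene high with 1 of them could enter through it. With LPS alone 8 members were under 300 (Slc2a9, Slc5a3, Slc35d2, Slc38a9, Slc41a1, Slc43a3, Slc45a1 and Slco2b1), and 0 were under it with LPS plus immune complexes. Just inside the threshold lay Slc38a9 (mean signal 301.3) and Slc45a1 (302.9), and just outside it Slc9a8 (298.6) and Slc46a3 (296.4). One member, Slc9a3r1, is not a carrier but a scaffold named after one.

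Carriers are grouped into families by sequence, and most families take a recognisable class of substrate. Some bring amino acids, glucose, creatine or inositol through the plasma membrane, usually by letting sodium flow in. Others export lactate with protons, load metabolites into mitochondria, or move nucleotide sugars into the Golgi, and several empty lysosomes of the products of digestion. In macrophages they are known for withholding iron and manganese from microbes, as Slc11a1 does at the phagosome, and for feeding the metabolism of activated cells.

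The macrophages were grown from mouse bone marrow for 7 days with 20% L-cell conditioned medium, then primed overnight with 100 U/ml of IFN-gamma and, after a wash, stimulated over 2 h. The 2 groups were LPS at 10 ng/ml, with 2 arrays, and LPS at the same dose with immune complexes (antibody bound to antigen, called LPS_IC here), also with 2 arrays. The titles name IFN-gamma for the LPS samples only, but the treatment notes give the priming for both groups; a time of 16 h is given for the LPS samples only. By these notes all 4 samples were primed and given LPS, there was no unstimulated sample, and the strain and age of the mice and the antigen of the complexes are not given in the sources used here. The labels do not say that the 2 arrays of a group came from separate cultures, so p-values measure only how these samples scatter, which may be technical. A difference in such bulk RNA can be a change of RNA per cell or of the number of cells of a type, and these cannot be told apart.

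All 8 macrophage markers were on the array with mean signals of at least 300, and their summed signal was 152218.8 and 186681 with LPS and 133083.4 and 150409.9 with LPS_IC. Both LPS_IC sums were thus the lower ones, with 6 of the 8 markers below 0 in log2 fold change and a median of -0.24. The part of this in the results was not tested. Of the markers of other cell types, none of B cells, T cells, fibroblasts, erythroid cells or dendritic cells reached a mean signal of 300, and of the neutrophil markers only S100a8 did. The summed signal of the 5 neutrophil markers on the array was 848.2 and 884.6 with LPS and 1381.9 and 1415 with LPS_IC, mostly S100a8, which read 540.8 and 504.7 against 871.3 and 1137.6. Its part in the results was not tested. The other lists were highest on the first LPS_IC array only, as with the T cell markers at 636.4 against 175.3 to 234.7. The first LPS_IC array stood apart, with a median signal over all probe sets of 155.4 against 68.2 to 88.3 on the others, and a 5th percentile of 28.1 against 3.3 to 7.9. Among the carriers, whose median signal was 908.6 to 1100.8 per array, this showed in the dimmer genes. For the 29 carriers with a mean signal under 500 the median difference of that array from the first LPS array was 0.38 on the log2 scale, against 0.01 between the second arrays. For the 31 with a mean of at least 2000 the same medians were -0.11 and -0.04. The part of this shift in the results below was not tested.

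The comparison asks which carriers mark macrophages given immune complexes along with LPS. None of the 126 passed in either direction in limma at an adjusted p under 0.05, where 0.0621% of all 12891 tested genes were called higher and 0% lower. At an unadjusted p under 0.05, limma had 5 carriers higher and 0 lower, the former being 3.97% of the carriers. Of the 5, 1 (Slc5a3) was under a mean of 300 with LPS alone and became a member through LPS_IC. The shares of all tested genes were 1.99% higher and 1.14% lower, and those of the 7112 genes with a mean signal of at least 300 were 2.95% and 1.94%. The 5 were Slc6a8, Slc38a1, Slc5a3, Slc11a2 and Slc16a1, which import creatine, glutamine, inositol and iron and carry lactate, and they were also the only carriers with a log2 fold change of at least 1 in either direction.

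The carriers as a whole were balanced on the deposited scale, counting those that became members through LPS_IC. Their log2 fold changes, taken here and below as LPS_IC minus LPS on log2(signal + 32), had a median of 0. They ran from a lowest value of -0.68 to a highest of 1.49, with 63 above 0 and 63 below. The 63 above include all 8 members that were under 300 with LPS alone. Counts above 0 in the classes below include those members too. The median was 0.05 over all tested genes and -0.08 over those with a mean signal of at least 300, of which 2871 were above 0 and 4166 below. The split of the carriers was 64 above and 62 below with quantile normalization, but 40 and 84 with median centring. It was 83 and 43 without the second LPS array and also without the first LPS_IC array. Without each of the other arrays in turn it was 60 and 66. In 105 carriers the difference was smaller than 0.5. The median size of the difference between stimulations was 0.24, and that between the 2 LPS arrays was 0.45 and between the 2 LPS_IC arrays 0.38. Means of 2 arrays scatter less than single arrays, so the order of these medians is only a description.

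Both LPS_IC arrays read above both LPS arrays for 25 carriers (19.8%) and below both for 14 (11.1%). The shares over all tested genes were 13.2% and 13.1%, and over genes with a mean signal of at least 300 they were 12% and 18.1%. With 1 array left out there are only 2 pairs, and the counts above and below were 46 and 24 without the first LPS_IC array, 39 and 45 without the second, 41 and 52 without the first LPS array and 55 and 28 without the second. Of the 25, 4 were among the 8 members that reached a mean of 300 with LPS_IC only, and the other 118 members had 21 above and 14 below. The 21 include Slc26a2, whose mean with LPS lay on the edge of that threshold. The split also depended on the scaling. With quantile normalization the counts above and below were 28 and 15. With the arrays centred on their medians, which moved the median of all genes from 0.05 to -0.15, they were 8 and 18. A difference of at least 2-fold on the raw signal in all 4 pairs of an LPS_IC and an LPS array was seen in 1 carrier on the higher side, Slc6a8, and 0 on the lower. Of all tested genes 1.28% met it on the higher side and 0.326% on the lower, and of those with a mean signal of at least 300 the shares were 1.04% and 0.281%, so 1 of 126 (0.794%) is near the background. Without 1 array the higher count was 3 to 6, and with median centring it was 0.

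**Figure D1:**
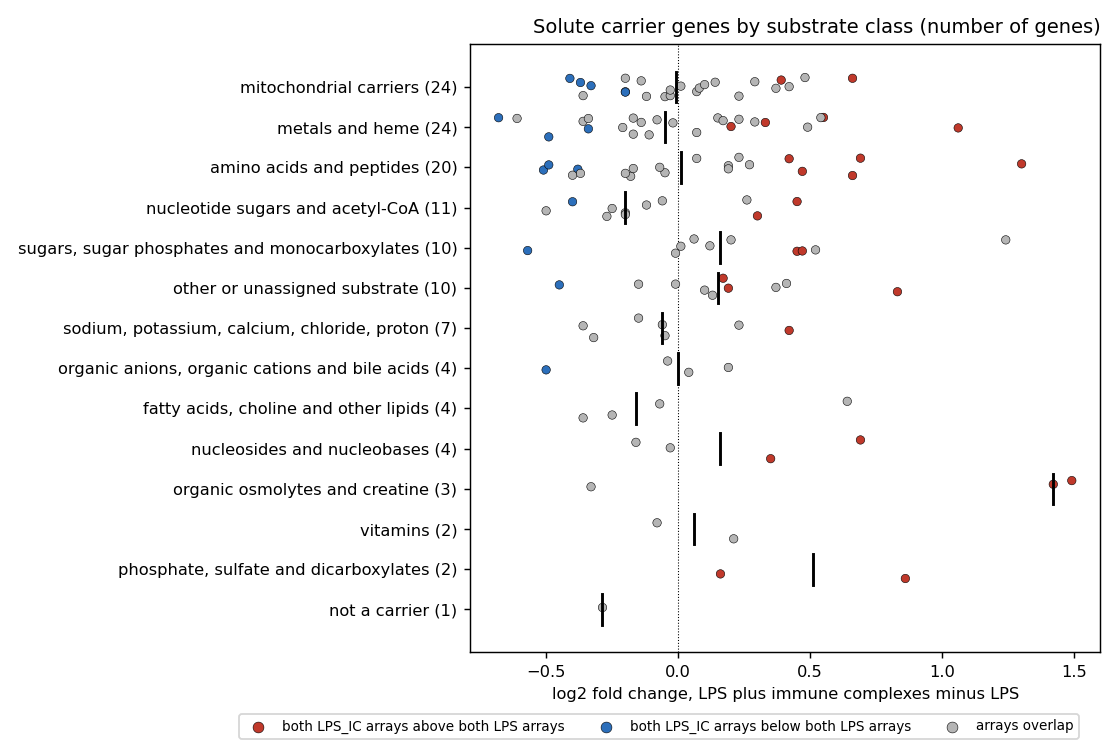
Log2 fold change (LPS_IC minus LPS) of each of the 126 genes, 1 point per gene, by substrate class with the number of genes in parentheses; red points have both LPS_IC arrays above both LPS arrays, blue both below, grey overlap, black bars are class medians, and vertical scatter within a row has no meaning. The classes with 20 or more genes have medians between -0.05 and 0.01, while Slc5a3 and Slc6a8 in the small osmolyte class and Slc38a1, Slc16a1 and Slc11a2 in others lie beyond 1.

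The class of organic osmolytes and creatine had 3 members, and 2 of them had the highest values of all carriers. Slc6a8, the sodium-coupled creatine importer, read 889.2 and 987.7 with LPS and 2249.2 and 2928.5 with LPS_IC. Every LPS_IC reading was at least 2.28 times every LPS reading. Its log2 fold change was 1.42 ± 0.36 (SE, n = 2 arrays per group), with a limma adjusted p of 0.39, the smallest among the carriers. Its second probe set had the same direction, with 962 and 1229.3 against 2106.3 and 2658.2 and a log2 fold change of 1.10 ± 0.36. There the lowest ratio of an LPS_IC to an LPS reading was 1.71.

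Slc5a3, which imports myo-inositol, an organic osmolyte and the headgroup of phosphoinositides, read 222.2 and 324.9 with LPS and 1188.6 and 557.9 with LPS_IC. The groups did not overlap, but the first LPS_IC array was far above the second. The log2 fold change was 1.49 ± 0.47 with a limma adjusted p of 0.861, and without that array it was 0.97. Its other 2 probe sets were dim and overlapped between the groups. The gene is known to share exon sequence with Mrps6, and which transcripts the probe sets read was not tested. Slc6a6, the importer of taurine, another organic osmolyte, lay on the other side with overlapping arrays, reading 6469 and 10286.3 with LPS and 5105.4 and 8257.6 with LPS_IC (-0.33 ± 0.34). The 3 members thus did not share a direction.

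Among the carriers of amino acids and peptides, of 20 members 10 were above 0 and 10 below, with a median of 0.01. Of the 20, 5 were entirely above and 3 entirely below the LPS arrays. Of all genes with a mean signal of at least 300, 12% were entirely above and 18.1% entirely below. Such counts moved with median centring, as given above for all carriers. Slc38a1, a sodium-coupled importer of glutamine and other neutral amino acids, read 1766.6 and 2004.8 with LPS and 3631.3 and 6064 with LPS_IC. Both LPS_IC arrays were well above both LPS arrays, and the log2 fold change was 1.30 ± 0.35 (limma adjusted p = 0.542). A second probe set, which unlike the first has no suffix for possible cross-hybridisation, read 1280.5 and 1859.4 against 3587 and 4258.8, a log2 fold change of 1.32 ± 0.35 (limma adjusted p = 0.47).

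Other carriers of neutral amino acids were less far apart. Slc1a5, the glutamine exchanger of proliferating cells, read 281.2 and 376.8 against 521.7 and 543.4 (0.66 ± 0.41). Slc3a2, the CD98 heavy chain that brings the light chains of the Slc7 family to the surface, read 11292.7 and 11422.8 against 14687.6 and 15782.1 (0.42 ± 0.25). Its arrays lay close within each stimulation and did not overlap between them. Slc7a5, the leucine-carrying light chain of Slc3a2, was not a member, with a mean signal of 251.7. Another of its light chains, Slc7a8, had 0.23 ± 0.39 with overlapping arrays. Slc36a4, a carrier of proline and tryptophan, read 512.5 and 550 against 702.7 and 794.1 (0.47 ± 0.39). Slc38a2, a close relative of Slc38a1, read 5265.1 and 2674.1 with LPS and 4316.4 and 3613.8 with LPS_IC, so that its LPS arrays lay on both sides of the others, and a second bright probe set had -0.31 ± 0.55.

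On the other side were Slc38a6, a carrier of the same family as Slc38a1, and Slc7a7, a light chain that exports cationic amino acids. Slc38a6 read 3029.1 and 3987.8 with LPS and 2248.6 and 2616.7 with LPS_IC (-0.51 ± 0.33), and Slc7a7 read 1580.5 and 2363.6 against 1349.1 and 1380.4 (-0.49 ± 0.37). Slc16a10, which despite its family carries aromatic amino acids, read 4461.2 and 4239.7 against 3249.1 and 3398.7 (-0.38 ± 0.31). All 3 were below without overlap at these probe sets, by less than 0.6, and leaving out each array gave -0.78 to -0.21 for Slc7a7. Second bright probe sets of Slc7a7 and Slc16a10 overlapped, at -0.43 ± 0.44 and -0.10 ± 0.37. Slc43a2, a facilitative carrier of large neutral amino acids, had -0.17 ± 0.38, and Slc7a1, the arginine importer, had 0.19 ± 0.38, both with overlapping arrays. A second bright Slc7a1 probe set had -0.20 ± 0.45, so its direction was not settled.

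Several members sit in lysosomes, where they release what digestion frees, and their values lay on both sides of 0. Gathered after their values had been seen, Slc66a1, which exports cationic amino acids, had 0.69 ± 0.45, and Slc38a9, the arginine sensor of mTORC1, had 0.27 ± 0.46. The next Slc38a9 probe sets, nearly as bright, had -0.15 ± 0.45 with overlap and -0.26 ± 0.44 without overlap. The peptide carriers Slc15a3 and Slc15a4 had -0.05 ± 0.26 and -0.18 ± 0.41, Slc36a1 had 0.19 ± 0.42, Slc38a7 had -0.40 ± 0.56, and Slc17a5, the sialic acid exporter, had -0.37 ± 0.41. At the brightest probe sets Slc66a1 alone among these did not overlap, at 265.6 and 558 with LPS and 678.5 and 613.7 with LPS_IC. The first LPS array was the low one. Without that array the log2 fold change of Slc66a1 was 0.2.

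The 24 carriers of metals and heme had a median of -0.05, which was 0.13 without the second LPS array and 0.17 without the first LPS_IC array. Of the 24, 11 were above 0 and 13 below, with 4 entirely above and 3 entirely below the LPS arrays. The shares over genes with a mean signal of at least 300 were 12% entirely above and 18.1% entirely below. Over all carriers such counts moved with median centring. Slc11a2, or DMT1, which brings ferrous iron from endosomes and the cell surface into the cytosol, read 1121 and 811 with LPS and 2101.7 and 1950.5 with LPS_IC. The log2 fold change was 1.06 ± 0.37 with a limma adjusted p of 1. All 4 probe sets of the gene had both LPS_IC arrays above both LPS arrays, and the other 3 gave 0.51 ± 0.38, 0.99 ± 0.39 and 1.08 ± 0.45. Its relative Slc11a1 (Nramp1), the phagosomal exporter of iron and manganese, read 13532.4 and 9012.5 with LPS and 10987.8 and 8769.8 with LPS_IC, with overlap and a log2 fold change of -0.17 ± 0.29. Slc40a1, ferroportin, the iron exporter of the cell surface, read 198.8 and 508.2 against 404.1 and 570.4 (0.54 ± 0.49), also with overlap. A single low LPS array carried the value of this probe set, which was -0.08 without it. A dimmer Slc40a1 probe set did not overlap, at 169 and 195.1 against 338.9 and 230.5 (0.55 ± 0.47). Slc48a1, which moves heme out of lysosomes, had 0.07 ± 0.33.

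Zinc carriers lay on both sides. Slc39a13, a zinc carrier of intracellular membranes, read 793.1 and 842.4 with LPS and 613.5 and 400.7 with LPS_IC, the lowest log2 fold change of any carrier at -0.68 ± 0.41. Slc39a14 (ZIP14), an importer of zinc and iron known from inflammation, read 2816.1 and 3358.9 against 2277 and 2091.6 (-0.49 ± 0.33). Its next probe set had -0.12 ± 0.42 with overlap. Slc30a7, which loads zinc into the Golgi, read 1650.1 and 1792.2 against 1194.9 and 1522.2 (-0.34 ± 0.36), and its second probe set had -0.11 ± 0.39 with overlap. On the higher side Slc39a6 (ZIP6), an importer at the plasma membrane, read 1510.9 and 2085.2 against 2325.4 and 2948.7 (0.55 ± 0.35). A dimmer Slc39a6 probe set went the other way without overlap, at 266.7 and 300.6 against 231.5 and 227.6 (-0.27 ± 0.44). Slc30a1, the zinc exporter of the surface and a known target of the metal-sensing factor MTF-1, had 0.29 ± 0.36 with overlapping arrays. None of these differences reached 1, and the directions divided within both zinc families.

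The copper carriers all overlapped between the stimulations. Slc31a1 (CTR1), the copper importer, read 5373.6 and 2237.7 with LPS and 4455.1 and 2629.8 with LPS_IC at its brightest probe set (-0.02 ± 0.43). A second Slc31a1 probe set, nearly as bright, read 2926.3 and 3543.6 against 2693.7 and 3398.2 (-0.09 ± 0.33). The probe sets of this gene thus ordered the replicates differently, while both log2 fold changes lay near 0. Slc31a2 (CTR2), a related protein of endosomes, read 5221.3 and 2479.8 against 2719 and 2034.5, a log2 fold change of -0.61 ± 0.40 that was -0.08 without the first LPS array. That array was the one that stood out.

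Of 10 carriers of sugars, sugar phosphates and monocarboxylates 8 were above 0 and 2 below, with a median of 0.16, which was -0.03 with median centring and 0 without the first LPS array. The 8 include Slc2a9 and Slc45a1, which became members through LPS_IC. Their place above 0 thus follows in part from how members were chosen, and the lean of this class is only a description. Slc16a1 (MCT1), which carries lactate and pyruvate together with protons, read 1142.4 and 514.9 with LPS and 3169.4 and 1087.4 with LPS_IC. Each LPS_IC array was above the LPS array of the same number, but the second LPS_IC array lay just below the first LPS array. The log2 fold change was 1.24 ± 0.53 (limma adjusted p = 1), and it ranged from 0.48 without the first LPS_IC array to 2 without the second. Slc2a6, a hexose carrier of lysosomes, read 8437.3 and 7562.7 with LPS and 4883.2 and 5901.9 with LPS_IC. Here both LPS_IC arrays were clearly lower, with a log2 fold change of -0.57 ± 0.29. Slc37a3, a sugar phosphate carrier relative, had 0.47 ± 0.41 without overlap, but its other, dim probe set had -0.24 ± 0.55, also without overlap. Slc45a1 had 0.52 ± 0.70 with overlap, and Slc50a1, a sugar carrier of the SWEET family, had -0.01 ± 0.38. Slc2a3, a high-affinity glucose importer, was not a member, with a mean signal of 266.3.

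**Figure D2:**
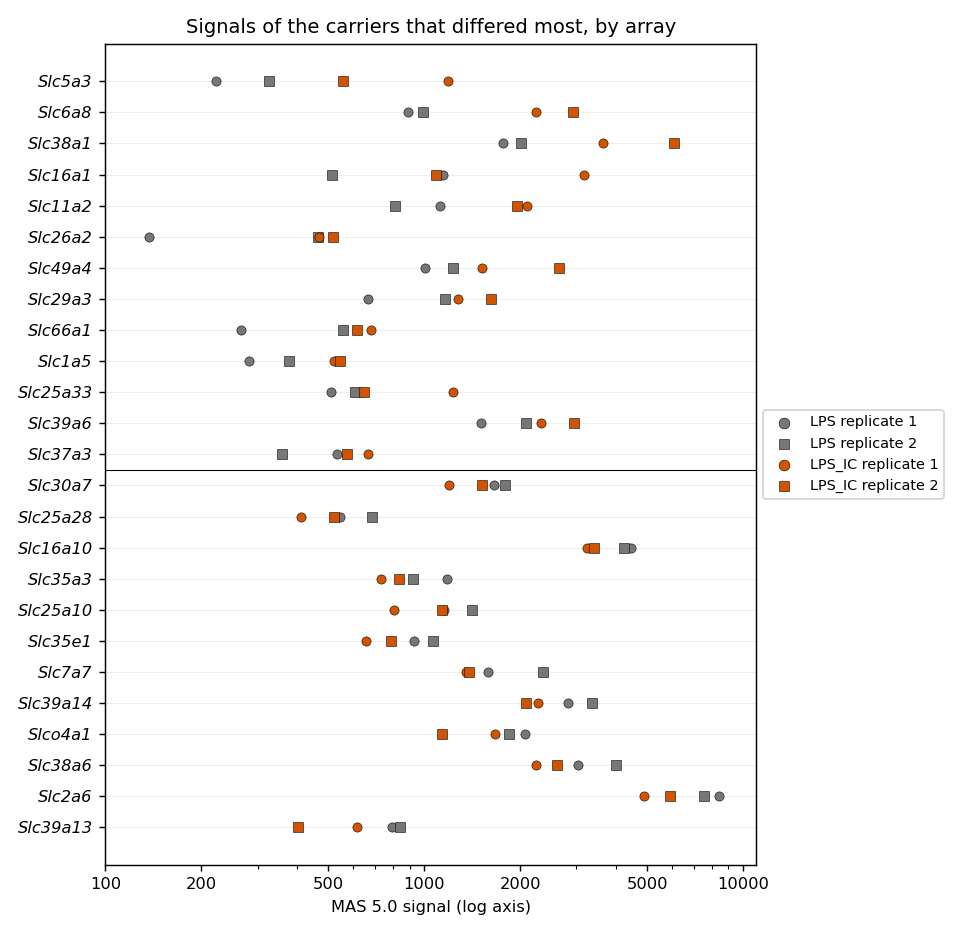
MAS 5.0 signal on a log axis on each of the 4 arrays for the 12 carriers highest and the 12 lowest in log2 fold change among those whose groups do not overlap, with Slc16a1 added, which overlaps; grey points are LPS, orange LPS_IC, circles replicate 1 and squares replicate 2. Slc6a8, Slc38a1 and Slc11a2 have wide gaps between the groups, whereas in Slc26a2 and Slc66a1 the first LPS array lies far from the other 3. The line parts the genes above 0 from those below it, among which Slc2a6 has the brightest signals.

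The 24 members of the Slc25 family, most of which move nucleotides, phosphate, acids and cofactors through the inner mitochondrial membrane, had log2 fold changes from -0.41 to 0.66 with a median of -0.01. That median was 0.07 with quantile normalization, -0.21 with median centring and 0.11 without the second LPS array. Of these, 12 were above 0 and 12 below. The adenine nucleotide carrier Slc25a5 had -0.20 ± 0.27, its relative Slc25a4 -0.03 ± 0.29 and the phosphate carrier Slc25a3 -0.05 ± 0.27. Slc25a33, a carrier of pyrimidine nucleotides, read 511.7 and 604.6 with LPS and 1229.3 and 648.7 with LPS_IC (0.66 ± 0.43). It did not overlap, but only the first LPS_IC array stood out, and the value was 0.21 without it. Slc25a45 had 0.48 ± 0.41 with overlap. The lowest were Slc25a10, the dicarboxylate carrier, at 1149.6 and 1416.5 against 802.4 and 1133.3 (-0.41 ± 0.38), and Slc25a28, or mitoferrin 2, at 542.5 and 685.2 against 411.7 and 521.6 (-0.37 ± 0.41). A second bright Slc25a10 probe set had -0.03 ± 0.42 with overlap. Slc25a37, or mitoferrin 1, which like mitoferrin 2 brings iron into mitochondria, read 4677.1 and 3063.1 against 5013.3 and 4925.7 (0.39 ± 0.32). The mitoferrins therefore had opposite signs, each without overlap and each smaller than 0.5. Leaving out each array gave 0.09 to 0.69 for Slc25a37 and -0.53 to -0.21 for Slc25a28.

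Carriers of nucleotide sugars, the donors for glycosylation, were classed with those of acetyl-CoA in the secretory pathway. This class had a median of -0.20 over 11 members, 3 above 0 and 8 below. That median was 0.05 without the first LPS_IC array. Slc35b2, the carrier of the sulfate donor PAPS, had -0.50 ± 0.50 with overlap, and Slc35a3, which carries UDP-N-acetylglucosamine, read 1177 and 920.5 against 733 and 832.5 (-0.40 ± 0.38). At its next probe set Slc35a3 had -0.14 ± 0.44 with overlap. Slc35d2 and Slc35a1, the CMP-sialic acid carrier, were above without overlap, at 0.45 ± 0.43 and 0.30 ± 0.42. The nucleoside class had 4 members and a median of 0.16, which was -0.04 with median centring. Slc29a3, which releases nucleosides from lysosomes, read 664.9 and 1165.5 with LPS and 1278.9 and 1623 with LPS_IC (0.69 ± 0.40). Its groups did not overlap, although the LPS arrays were further apart than the nearest arrays of the groups. Slc43a3, a nucleobase carrier, had 0.35 ± 0.43, Slc29a1 had -0.03 ± 0.41 and Slc29a4 had -0.16 ± 0.43.

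The 7 carriers of sodium, potassium, calcium, chloride, protons and bicarbonate had a median of -0.06, from -0.36 for the anion exchanger Slc4a2 to 0.42 for Slc8b1, the sodium-calcium exchanger of mitochondria. Only Slc8b1 did not overlap, at 1895.6 and 2754.9 with LPS and 3152.3 and 2999 with LPS_IC, and leaving out each array gave it 0.16 to 0.69. Slc12a4, a potassium-chloride cotransporter, had -0.32 ± 0.41 and Slc4a11 had 0.23 ± 0.48. The phosphate importer Slc20a1 had 0.16 ± 0.31. Slc26a2, the sulfate importer that supports proteoglycan sulfation, had 0.86 ± 0.52, with readings of 136.5 and 463.4 against 469 and 519.3. The first LPS array was the low one, and the value was 0.09 without it and 0.02 ± 0.45 at the next Slc26a2 probe set.

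Among the vitamin carriers Slc23a2, which imports ascorbate, had -0.08 ± 0.31 and the folate carrier Slc19a1 had 0.21 ± 0.44. Of the 4 lipid and choline carriers Slc27a1, a fatty acid transport protein, had 0.64 ± 0.42 and Slc27a4, its relative, -0.36 ± 0.54, with the choline carrier-like Slc44a1 and Slc44a2 at -0.07 ± 0.34 and -0.25 ± 0.48, all with overlap. The 4 organic ion carriers had a median of 0, which was -0.17 with quantile normalization, -0.20 with median centring and -0.34 without the first LPS array. Of these Slco4a1 read 2077.4 and 1846.4 against 1669.3 and 1138.3 (-0.50 ± 0.37), without overlap. A second bright Slco4a1 probe set had -0.03 ± 0.40 with overlap. Slc22a5, the carnitine importer, had -0.04 ± 0.42, Slco3a1 0.04 ± 0.37 and Slco2b1 0.19 ± 0.67. The scaffold Slc9a3r1 had -0.29 ± 0.39. None of these classes held a gene that differed by 1 or more.

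Of 10 members with no substrate class given here, 7 were above 0 and 3 below, with a median of 0.15 that was -0.05 with median centring. Slc49a4, a protein of the lysosomal membrane, read 1002.7 and 1229.8 with LPS and 1520.6 and 2642.9 with LPS_IC, a log2 fold change of 0.83 ± 0.39 (limma adjusted p = 1). Both LPS_IC arrays were above both LPS arrays, the second by more, and leaving out each array gave 0.44 to 1.23. Slc35e1 had -0.45 ± 0.38 without overlap, and its next probe set had -0.30 ± 0.43 with overlap. Slc35f5 had 0.41 ± 0.39 and Slc10a7 -0.15 ± 0.43, both with overlap.

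The sequence before the start of transcription was read for the members that RefSeq's promoter table of GRCm38.p6 holds, 98 of the 126. In the 250 bases before the start, the E-box CACGTG, which reads the same on both strands and is bound by MYC, USF and MiT family factors, was found in 19 of the 98 (19.4%). It occurs in 6.86% of all 27025 genes of the table and in 11.4% of the 5860 genes with a mean signal of at least 300. The core of the metal response element bound by MTF-1 (TGCACNC or TGCGCNC, either strand) was in 36.7% of members and 34.6% of those 5860 genes. The composite site of ATF4 (TGATGNAAN, either strand) was in 4.08% and 2.53%, and the core of NFAT family sites (TGGAAA, either strand), searched after the values of the osmolyte carriers had been seen, in 14.3% and 17.3%. The 19 members with an E-box had a median log2 fold change of 0.10, with 5 entirely above and 0 entirely below the LPS arrays. The 79 without it had -0.08, with 8 and 11. Of all genes with a mean signal of at least 300, with or without an E-box, 12% were entirely above and 18.1% entirely below. The same counts over all genes with an E-box were not made. For all 126 carriers such counts went from 25 and 14 to 8 and 18 with median centring, so the difference by E-box is only a description. A match is a description of the letters and not of a bound site.

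Of the 5 carriers with a log2 fold change of at least 1 and the next highest, Slc26a2 and Slc49a4, only Slc5a3, Slc16a1 and Slc49a4 have an entry in that table. Slc2a6, whose LPS_IC arrays were both lower, has one too. Their 250 bases before the start are shown 5′ to 3′ on the strand of the gene, to let the matches be seen in place, with matches to any of these motifs in capitals.
Slc5a3, chr16:92058072-92058321, plus strand: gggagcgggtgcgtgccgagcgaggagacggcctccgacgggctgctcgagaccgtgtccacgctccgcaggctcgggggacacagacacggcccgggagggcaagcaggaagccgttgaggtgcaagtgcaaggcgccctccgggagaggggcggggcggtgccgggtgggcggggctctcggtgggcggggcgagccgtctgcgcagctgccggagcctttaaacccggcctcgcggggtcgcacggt
Slc16a1, chr3:104638414-104638663, plus strand: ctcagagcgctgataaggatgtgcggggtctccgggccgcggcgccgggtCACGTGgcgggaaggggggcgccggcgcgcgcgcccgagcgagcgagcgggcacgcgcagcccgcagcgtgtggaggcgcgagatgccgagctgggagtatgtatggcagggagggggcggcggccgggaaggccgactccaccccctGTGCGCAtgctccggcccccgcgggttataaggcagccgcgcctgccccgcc
Slc49a4, chr16:35769371-35769620, minus strand: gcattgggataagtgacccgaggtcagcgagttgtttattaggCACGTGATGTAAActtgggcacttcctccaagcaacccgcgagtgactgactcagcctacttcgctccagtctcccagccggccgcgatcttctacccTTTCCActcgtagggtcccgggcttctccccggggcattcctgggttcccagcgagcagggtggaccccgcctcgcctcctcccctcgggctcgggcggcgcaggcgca
Slc2a6, chr2:27027999-27028248, minus strand: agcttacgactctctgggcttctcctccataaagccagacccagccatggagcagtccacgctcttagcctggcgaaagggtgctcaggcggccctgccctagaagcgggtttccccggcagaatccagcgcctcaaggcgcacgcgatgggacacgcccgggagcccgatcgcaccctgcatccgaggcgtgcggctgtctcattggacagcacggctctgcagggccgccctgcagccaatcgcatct

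In the Slc16a1 sequence the capitals mark an E-box that begins 200 bases before the start and a match to the metal response core, on the opposite strand, that begins 52 bases before it. In the Slc49a4 sequence an E-box begins 207 bases before the start and overlaps a match to the ATF4 composite that begins 203 bases before it, and an NFAT core on the opposite strand begins 109 bases before it. The Slc5a3 and Slc2a6 sequences hold none of the 4 motifs. Of the 3 genes with a positive log2 fold change shown, Slc16a1 and Slc49a4 thus have the E-box in this window and Slc5a3 does not. Slc16a1 and Slc49a4 had the highest log2 fold changes of the 19 members with an E-box. The others lay on both sides of 0, down to -0.40 for Slc38a7.

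Probe sets of a gene gave a check on single values. Of the 126 genes 80 had more than 1 probe set, and 58 other probe sets, of 40 genes, also had a mean signal of at least 300. Their log2 fold changes had the same sign as the brightest probe set in 46 of 58, with a median absolute difference of 0.19. They differed by more than 0.5 in 4, for Slc11a2, Slc25a20, Slc25a39 and Slc26a2. For Slc25a39, a carrier that brings glutathione into mitochondria, the brightest probe set had -0.36 ± 0.33 and 2 others -0.38 and -0.54, while another had 0.39. Slc6a8, Slc38a1 and Slc11a2 were on the higher side with all of their bright probe sets.

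**Figure D3:**
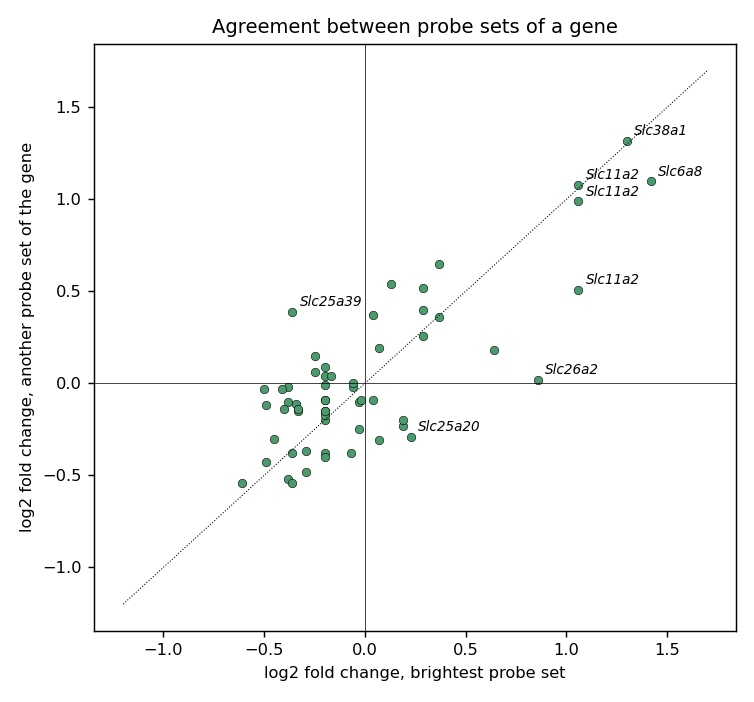
Log2 fold change (LPS_IC minus LPS) of the brightest probe set of a gene on the x axis and of each other probe set with a mean signal of at least 300 on the y axis, 58 points from 40 genes, with a dotted line at equality. Slc38a1, Slc6a8 and Slc11a2 lie at the upper right with both readings, and Slc25a39 and Slc26a2 lie away from the line.

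Some carriers differed more between the arrays of a stimulation than any did between the stimulations. The LPS arrays differed by at least 1 on the log2 scale for 16 carriers and the LPS_IC arrays for 17. Slc37a2, a sugar phosphate carrier of the endoplasmic reticulum, read 1478.5 and 4918.4 with LPS and 1801 and 4812.8 with LPS_IC, so replicate 2 was the higher one in both. The same held for Slc38a10, at 822.2 and 3691.6 against 878 and 2612.8, and for Slc9a9, a sodium-proton exchanger of endosomes, at 418.6 and 1309 against 404.3 and 1095.1. The reverse held for Slc45a1, which read 372.8 and 94.7 against 613.1 and 130.9, and for Slc16a1. These genes were singled out after their values had been seen. The labels do not say what the replicate numbers share, and what sets the 2 numbers apart was not tested.

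**Figure D4:**
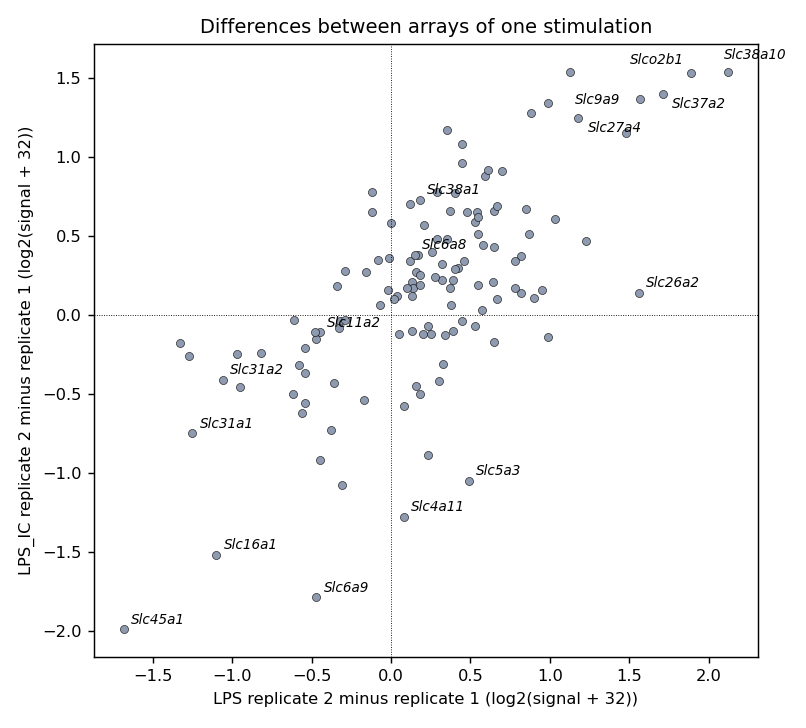
Difference between replicate 2 and replicate 1 on log2(signal + 32) for the LPS arrays (x axis) and the LPS_IC arrays (y axis), 1 point per carrier. Slc37a2, Slc38a10 and Slc9a9 lie at the upper right and Slc45a1 and Slc16a1 at the lower left, with differences of the same sign in both stimulations, while Slc6a8 and Slc11a2 lie near the middle.

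Genes around these carriers were read from lists. Of carriers with a solute carrier number but another name, 26 of 34 were tested, with a median of 0.02, 14 above 0, 12 below and 0 past the limma threshold. Ctns, cystinosin, which exports cystine from lysosomes, was the highest, at 169.7 and 135.6 with LPS and 578.8 and 301.7 with LPS_IC (1.30 ± 0.48, limma adjusted p = 1). Cln3, a protein of the lysosomal membrane, was the lowest, at -0.69 ± 0.41 with overlap. Of 26 ABC transporters, which use ATP, 23 were tested, with a median of 0.17, 13 above 0, 10 below and 0 past the threshold. Abcc1, an exporter of glutathione conjugates and leukotriene C4, read 4340.9 and 4436.4 against 2927.2 and 2488.4 (-0.69 ± 0.31). It was the lowest of them, and Abcb9, a peptide transporter of lysosomes, the highest at 1.23 ± 0.96, with dim signals of 66.7 and 14.6 against 295.7 and 45.3.

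Of 14 genes of metal storage and sensing 12 were tested, with a median of -0.27, 3 above 0, 9 below and 0 past the threshold. Lcn2, a binder of bacterial siderophores, read 1517.5 and 766 with LPS and 382.9 and 230 with LPS_IC (-1.75 ± 0.46, limma adjusted p = 0.466). Cp, ceruloplasmin, the ferroxidase that works with ferroportin, read 3059.5 and 2116.1 against 1412.2 and 1173.3 (-0.97 ± 0.36). The metallothioneins had opposite signs, Mt1 at 0.44 ± 0.25 and Mt2 at -0.34 ± 0.27, and Tfrc, the transferrin receptor that delivers iron to Slc11a2, had 0.09 ± 0.32. The largest differences among these genes thus lay below 0, while Slc11a2 lay above it. Of 20 genes of amino acid sensing and the ATF4 response 19 were tested, with a median of -0.21, 5 above 0, 14 below and 0 past the threshold. Nupr1 read 20220.1 and 22796.6 with LPS and 6962.5 and 13126.3 with LPS_IC (-1.16 ± 0.31, limma adjusted p = 0.483) and was the lowest of them. Atf3, a stress-induced transcription factor, was the highest, at 11797.9 and 12486.2 against 18196.8 and 18510.6 (0.60 ± 0.24, limma adjusted p = 1). Atf4 had 0.11 ± 0.30, and Asns, asparagine synthetase, had -0.21 ± 0.55.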

How the data were processed

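RNA of the 4 samples was read on a mouse Affymetrix array, per the labels' protocols. The authors deposited linear intensities, with MAS 5.0 named in the submitters' processing notes, and each probe set has 1 value on an array. The 4 arrays had nearly equal trimmed mean signals (497 to 497.2), no detection calls were used, and no scaling was added. The number of arrays limits the precision.

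Groups and replicate numbers came from the sample titles. Of 45037 probe sets besides 64 controls, 34945 name 1 gene, 932 several and 9160 none in GEO's annotation of the array. Only the first kind was named, and all 126 members matched NCBI RefSeq by gene ID. The probe set with the highest mean signal stood for a gene, and levels of different probe sets were not compared. A filter removed probe sets whose mean was under the 40th percentile (69.6), and 27022 were tested. LPS_IC was compared with LPS on log2(signal + 32) in limma 3.58.1 (R 4.3.3) with lmFit, eBayes with a variance trend, without a block, as a two-sided test, with Benjamini-Hochberg adjustment over the 27022. The threshold was an adjusted p under 0.05. Every adjusted p and every standard error is from this fit. The fit was also run on simulated arrays with independent noise and no array effect, which cannot show how it does with an array that stands apart.

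Substrate classes were assigned by family from textbook substrates, with single genes overridden. The members, classes and lists were chosen with earlier results of these data known, and no set test was run. The genes named were the 12 highest and 12 lowest members without overlap between groups, the 2 highest and 2 lowest of each class of 3 or more, all members of smaller classes, and 28 carriers listed by name, of which 24 were members. Any other gene was named after its values were seen. Alternatives were quantile normalization, median centring, pseudocounts of 1 and 100, no filter or the 60th percentile, no variance trend, a replicate block, leaving out each array, members from a mean of 200 or 500, no _x_at or _s_at probe sets, and an adjusted p under 0.1.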

Additional observations from a re-analysis of the deposited data

How the results depend on the processing

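No carrier passed the limma threshold under any setting but the replicate block, which called 6 higher and 0 lower (Slc5a3, Slc6a8, Slc38a1, Slc16a1, Slc11a2 and Slc49a4), or 4.76% and 0% of the carriers, against 1.74% and 1.3% of all tested genes and 2.98% and 2.33% of those with a mean signal of at least 300. Of the 6, Slc5a3 was under a mean of 300 with LPS alone and became a member through LPS_IC. The replicate number is not known to mark a shared culture. The correlation of deviations from the group means between arrays of the same number was 0.382 over 27022 probe sets. That fit had infinite prior degrees of freedom, and every probe set took the trend's variance. The median log2 fold change of the carriers, 0, was -0.2 with median centring (all genes -0.15) and ranged from -0.04 to 0.17 without each array in turn. The count of carriers at least 2-fold higher in all pairs, 1, was 2 with quantile normalization, 0 with median centring, 3 over the 2 pairs of the replicate block, and 3 to 6 without each array in turn. The lower count was 0 in each of these. In alternatives chosen after seeing the data, the count entirely above the LPS arrays, 25, was 8 with median centring and 39 to 55 without each array in turn, and that entirely below, 14, was 24 to 52 without each array in turn, over 2 pairs each.

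Signs of genes near 0 turned with the processing. With quantile normalization the log2 fold change was 0.11 for Slc15a3, 0.02 for Slc23a2, 0.09 for Slc31a1, 0.02 for Slc44a1 and -0.14 for Slco2b1. With median centring it was -0.04 for Slc20a1, -0.12 for Slc38a2, -0.13 for Slc48a1, -0.01 for Slc7a1, -0.01 for Slco2b1 and -0.16 for Slco3a1. Without probe sets ending in _x_at or _s_at it was 0.15 for Slc44a2. Of the 65 named carriers 28 turned sign when 1 array was left out, 27 kept it but moved by over 1.5 times, and 10 stayed within that (Slc1a5, Slc2a6, Slc3a2, Slc6a8, Slc11a2, Slc16a10, Slc35a1, Slc35e1, Slc38a1 and Slc39a14). The ranges of those that turned were: Slc10a7 -0.44 to 0.14, Slc11a1 -0.46 to 0.12, Slc12a4 -0.77 to 0.13, Slc15a3 -0.26 to 0.16, Slc19a1 -0.15 to 0.58, Slc22a5 -0.26 to 0.19, Slc23a2 -0.32 to 0.15, Slc27a4 -0.99 to 0.26, Slc29a1 -0.23 to 0.17, Slc29a4 -0.43 to 0.11, Slc31a1 -0.65 to 0.61, Slc35b2 -1.13 to 0.14, Slc38a2 -0.41 to 0.56, Slc40a1 -0.08 to 1.15, Slc43a2 -0.6 to 0.25, Slc44a1 -0.38 to 0.24, Slc44a2 -0.92 to 0.42, Slc45a1 -0.48 to 1.51, Slc48a1 -0.03 to 0.17, Slc4a11 -0.41 to 0.86, Slc4a2 -1.1 to 0.38, Slc50a1 -0.08 to 0.05, Slc6a6 -0.67 to 0.02, Slc7a1 -0.14 to 0.51, Slc7a8 -0.06 to 0.52, Slc9a3r1 -0.75 to 0.17, Slco2b1 -0.76 to 1.14, Slco3a1 -0.1 to 0.19. Of the 65 named carriers the other signs held in each of these alternatives.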
